A study of Mus musculus with 4 samples.

Results

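The dystrophin glycoprotein complex was followed through 9 genes, namely Dmd, Utrn, Dag1, Sgca, Sgcb, Sgcd, Sgce, Sntb1 and Sspn, which were taken by symbol from the 55573 genes of a ribosome profiling table. The complex spans the plasma membrane of muscle cells and ties the actin cytoskeleton to laminin in the basement membrane. Dystrophin (Dmd), or its relative utrophin (Utrn), is the link inside the cell, dystroglycan (Dag1) is the laminin receptor, the sarcoglycans and sarcospan (Sspn) brace dystroglycan in the membrane, and syntrophins are adaptors that bind dystrophin. Loss of dystrophin causes Duchenne muscular dystrophy, and in muscle stem cells dystrophin has been tied to polarity and asymmetric division.

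The cells were primary mouse myoblasts, the proliferating progeny of muscle stem cells, grown with FGF from digested hind-limb muscle and collected on day 2 of proliferation. Of the 4 libraries, 2 are labelled WT, for wild type, and 2 are labelled as an eIF5A knockout (eIF5A-KO). The study describes the knockout mice as tamoxifen-induced Pax7 CreERT2/+;eIF5A f/f animals, 3 weeks old when the cells were taken, and the controls of this assay as WT littermates, while control animals elsewhere in it are given as Pax7 CreERT2/+ or as Pax7 +/+;eIF5A f/f. Although the sample titles read Polysome-Seq, the extraction protocol gives RNase I digestion and gel purification of ribosome-protected fragments, which is ribosome profiling, and the values are read as such here. Cre was driven by Pax7, so cells that never expressed Pax7 keep Eif5a. All 4 cultures received cycloheximide, which holds ribosomes on the mRNA, before lysis, and nothing in the labels says whether the libraries of a group came from separate animals or cultures, so the p-values measure the spread between these libraries only.

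Each library held between 642429 and 704006 recovered reads. Protein-coding genes took 41.5% and 33.9% of the reads in WT libraries 1 and 2, and 65.4% and 59.2% in the libraries labelled eIF5A-KO. Eif5a, the targeted gene, stood at 34.9 and 65.2 RPKM in WT (50 and 73 reads) and at 60.3 and 59.4 RPKM in eIF5A-KO (130 and 114 reads), a log2 fold change of 0.32 (SE 0.48, limma, Benjamini-Hochberg adjusted p = 0.839). Eif5a was therefore not seen to be lower where the label says knockout. Which exons were floxed is not given in the sources used here, so "eIF5A-KO" below means the libraries so labelled. RPKM is the authors' unit, in which reads are divided by gene length and by library size. The sizes the authors divided by were not the read totals, but 602863 and 471136 in WT and 906990 and 807705 in eIF5A-KO.

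eIF5A carries hypusine, which is made from spermidine, and helps ribosomes past stretches of consecutive prolines. Runs of 3 or more prolines were therefore located in the longest complete coding sequence of each gene. They occurred in 4 of the 9 members, at 7 places, against 19.95% of 21590 coding genes with at least 1 run. The stretches that hold them are shown because such codons are where eIF5A is known to act. Each sequence is the coding strand of GRCm38 (GENCODE M21), 5′ to 3′, with the codons of proline runs in capitals. The Dmd stretch lies in exon 17 of 79 at chrX:83729417-83729473 (plus strand), the Utrn stretch in exon 17 of 75 at chr10:12726231-12726290 (minus strand), the Dag1 stretch in exon 4 of 4 at chr9:108207259-108207531 (minus strand, up to and including the stop codon), and the Sntb1 stretch in exon 2 of 7 at chr15:55792150-55792200 (minus strand).
Dmd: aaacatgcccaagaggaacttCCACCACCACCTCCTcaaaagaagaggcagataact
Utrn: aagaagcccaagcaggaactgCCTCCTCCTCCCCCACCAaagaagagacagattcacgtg
Dag1: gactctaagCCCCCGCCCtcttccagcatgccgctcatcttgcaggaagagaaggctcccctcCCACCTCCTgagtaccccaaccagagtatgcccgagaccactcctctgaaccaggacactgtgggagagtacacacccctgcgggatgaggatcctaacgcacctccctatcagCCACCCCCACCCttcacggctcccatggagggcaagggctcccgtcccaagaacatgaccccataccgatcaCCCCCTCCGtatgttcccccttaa
Sntb1: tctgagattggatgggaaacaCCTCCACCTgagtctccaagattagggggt

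Dystrophin had 1 run, of 5 prolines at codons 706 to 710, and utrophin had 1 run, of 6 prolines at codons 672 to 677. When both proteins were aligned, 49.6% of 3376 aligned residues were identical, and the first proline of the dystrophin run fell opposite the first of the utrophin run at codon 672. A run of 5 or more prolines was present in 2.92% of coding genes. Dystroglycan had 4 runs, at codons 807 to 809, 825 to 827, 863 to 866 and 887 to 889, all in the stretch printed above, which runs to the end of the cytoplasmic tail. As many as 4 or more places were found in 1.87% of coding genes. The last of these runs is followed directly by a tyrosine codon, and such a proline-rich motif ending in tyrosine is the known docking site of dystrophin and utrophin on dystroglycan. Sntb1 had 1 run, of 3 prolines at codons 214 to 216. No run was found in Sgca, Sgcb, Sgcd, Sgce or Sspn.

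**Figure D1:**
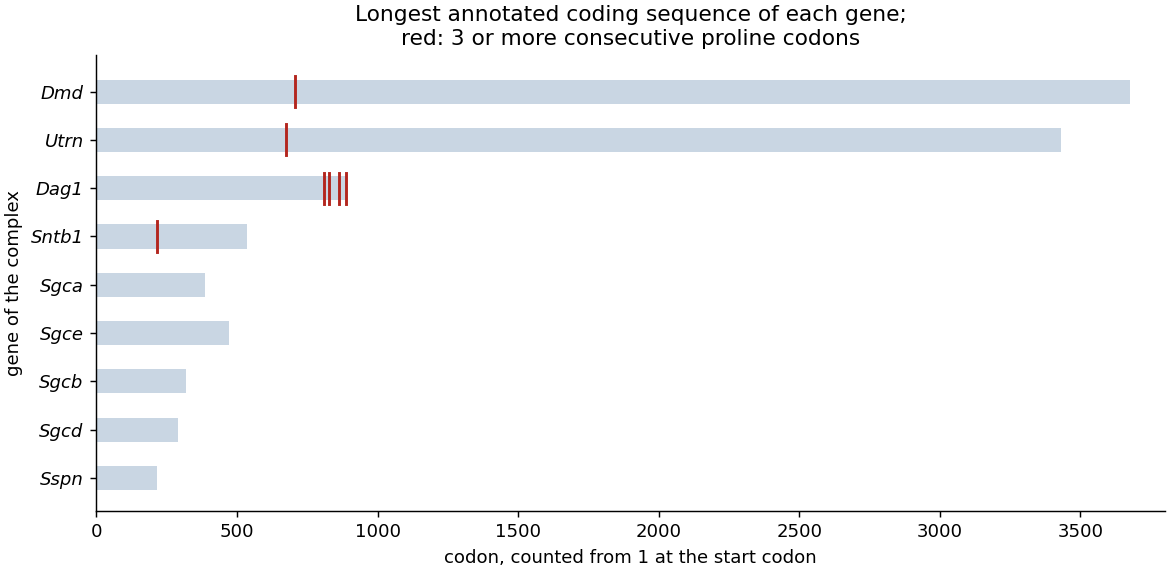
Position of each run of 3 or more prolines along the protein, in codons from the start (x axis), for the 9 members. Dmd and Utrn each carry 1 run, Dag1 carries 4 between codons 807 and 889 of 893, Sntb1 carries 1, and the other 5 members carry none.

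The genes lie on different chromosomes, and several are very long. In GRCm38, Dmd spans chrX:82948870-85206141 with 79 exons in the longest coding transcript, and Utrn spans chr10:12382188-12869365 with 75 exons. Dag1 lies at chr9:108204634-108263958 with 4 exons. The sarcoglycan genes lie at chr11:94962791-94976327 (Sgca), chr5:73632749-73647790 (Sgcb), chr11:46896253-47988969 (Sgcd) and chr6:4674350-4747207 (Sgce). Sntb1 lies at chr15:55636388-55906949, and Sspn at chr6:145931641-145965223. In ribosome profiling reads are expected mainly over the coding part, yet the authors divided by the whole exon length, of which the coding sequence makes up 60.1% in Utrn, 46.4% in Dmd and 10.5% in Sgcd.

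Dystrophin itself was barely read. Dmd had 9 and 3 reads in WT libraries 1 and 2 and 7 and 4 reads in eIF5A-KO libraries 1 and 2, or 0.627, 0.268, 0.324 and 0.208 RPKM. Its mean was the lowest of the 9 members and exceeded that of only 18.8% of the protein-coding genes with reads. The groups overlapped, at 0.447 ± 0.254 RPKM in WT and 0.266 ± 0.0822 in eIF5A-KO (SD, n = 2 each). Dmd also makes short products from internal promoters, and 3 complete coding transcripts of 1812 to 11034 bases are annotated, so values for the whole gene do not tell full-length dystrophin from the short forms.

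Utrophin, which takes dystrophin's place in immature muscle and in other cell types, was read far more. Utrn had 80 and 46 reads in WT (7.76 and 5.71 RPKM) and 179 and 77 reads in eIF5A-KO (11.5 and 5.57 RPKM). The first eIF5A-KO library was the highest and the second was the lowest of all 4, so the groups overlapped. Of the reads on Utrn and Dmd together, Utrn took 89.9%, 93.9%, 96.2% and 95.1% in the 4 libraries in the order given above. The lowest bound of the exact 95% binomial intervals was 81.7%, and these intervals cover counting error only. Per kilobase, the ratio of Utrn to Dmd was 12.4 and 21.3 in WT and 35.6 and 26.8 in eIF5A-KO. The ratio did not overlap between groups, at 16.8 ± 6.34 and 31.2 ± 6.22 (SD, n = 2 each), but its exact two-sided permutation p was 0.333, the smallest that 2 against 2 libraries allow, and it rests on the few reads of Dmd.

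Dystroglycan had the highest level per kilobase in every library. Dag1 encodes a single precursor that is cleaved into the extracellular laminin-binding α subunit and the membrane-spanning β subunit. It had 123 and 70 reads in WT (32.1 and 23.4 RPKM) and 135 and 105 reads in eIF5A-KO (23.4 and 20.4 RPKM). The first WT library was the highest, and the second WT library and the first eIF5A-KO library had nearly the same level. Dag1 took between 35.1% and 46.2% of all reads on the 9 members, although the longer Utrn took more in the first eIF5A-KO library (46.5%), and its mean level lay above that of 93.8% of the protein-coding genes with reads.

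Among the sarcoglycans, β-sarcoglycan led. Sgcb had 21 and 22 reads in WT (8.60 and 11.5 RPKM) and 24 and 29 reads in eIF5A-KO (6.53 and 8.86 RPKM). The groups overlapped narrowly, since the higher eIF5A-KO library lay just above the lower WT library. Sgcd, whose δ-sarcoglycan forms the core of the subcomplex with β-sarcoglycan, had 3 and 4 reads in WT (0.603 and 1.03 RPKM) and 8 and 10 reads in eIF5A-KO (1.07 and 1.499 RPKM). Both eIF5A-KO libraries were above both WT libraries, by a margin that 1 read would erase.

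The α and ε sarcoglycans are close relatives, with 47.1% of 384 aligned residues identical. α-sarcoglycan is largely restricted to striated muscle, whereas ε-sarcoglycan is made in many tissues. Sgce had 12 and 13 reads in WT (1.88 and 2.60 RPKM) and 26 and 16 reads in eIF5A-KO (2.70 and 1.87 RPKM). Its group means were nearly equal. Sgca had 2 reads in each WT library (1.91 and 2.45 RPKM), 0 reads in the first eIF5A-KO library and 8 reads in the second (5.71 RPKM). The first eIF5A-KO library was thus the lowest and the second the highest of the 4. At the depth of the first, the floor of 3 reads corresponds to 1.91 RPKM for Sgca, close to both WT values, and the WT values themselves rest on 2 reads each, so these counts cannot settle a difference of Sgca. Mitochondrial genes that every cell uses were also listed at 0, so a 0 is not read as absence.

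Sarcospan, a small membrane protein that binds the sarcoglycans, had 10 and 13 reads in WT (3.32 and 5.52 RPKM) and 6 and 11 reads in eIF5A-KO (1.32 and 2.73 RPKM). Sspn was the only member with both eIF5A-KO libraries below both WT libraries, and it stood lowest in the first eIF5A-KO library. Its exons overlap those of an annotated gene on the opposite strand, Sspnos, by 69 bases, and whether strand was used in counting is not stated. Sntb1, the β syntrophin adaptor that also carries a proline run, had 6 reads and 1 read in WT (1.87 and 0.399 RPKM) and 0 and 4 reads in eIF5A-KO (0 and 0.930 RPKM). The WT libraries differed from each other by more than the group means did, and 3 reads would be 0.621 RPKM for Sntb1 in the library at 0.

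The order of mean RPKM over the 4 libraries was Dag1 (24.8), Sgcb (8.88), Utrn (7.64), Sspn (3.22), Sgca (2.52), Sgce (2.26), Sgcd (1.05), Sntb1 (0.800) and Dmd (0.357). Among neighbours in this order, Dag1 stood above Sgcb, Utrn above Sspn and Sgce above Sgcd without overlap of their ranges. All other neighbours overlapped. When reads were divided by coding length instead, the order became Dag1 (mean 58.9 reads per coding kilobase, scaled to library size as in RPKM), Sgcb (37.5), Sspn (24.9), Sgce (16.9), Utrn (12.7), Sgcd (9.996), Sgca (3.76), Sntb1 (2.64) and Dmd (0.770). On this scale every pair of neighbours overlapped in range, although Dag1 still exceeded Sgcb, and Sgcb exceeded Sspn, within each of the 4 libraries. Dag1 at the top and Dmd at the bottom were the same on both scales, whereas Utrn, whose exon length is mostly coding, moved from rank 3 to rank 5.

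**Figure D2:**
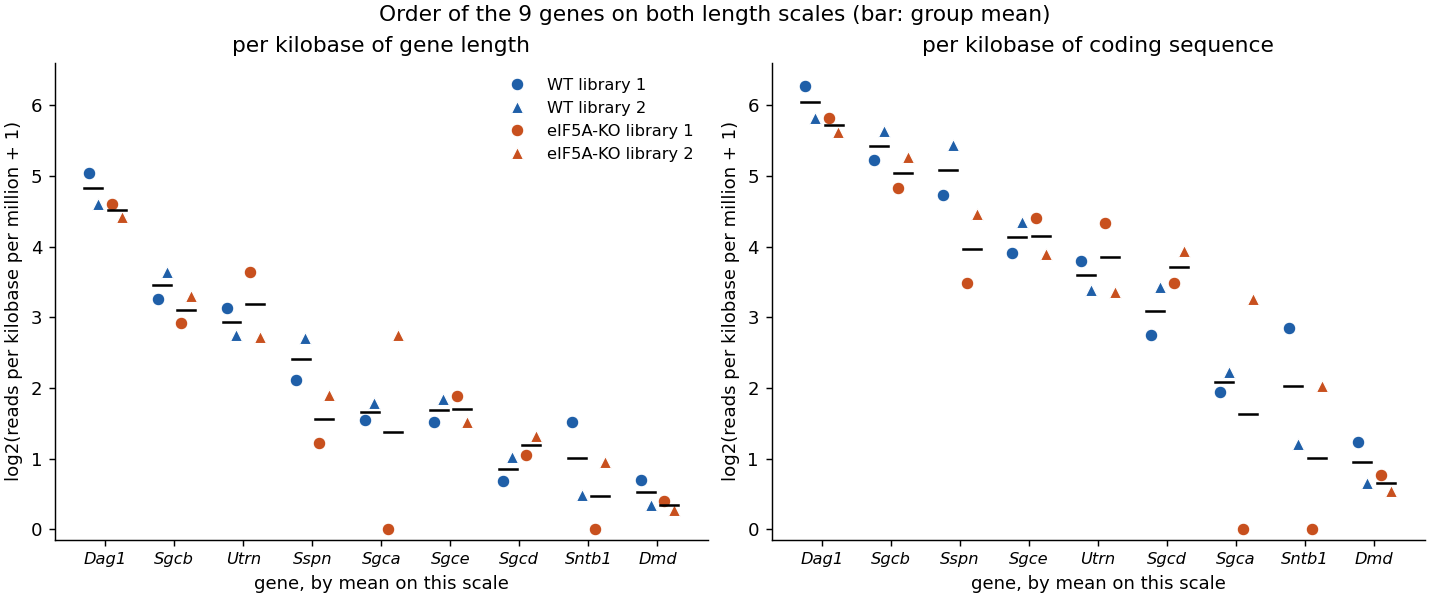
Level of each member in each of the 4 libraries, drawn as log2(level + 1), with 1 point per library. Left, RPKM over the whole exon length. Right, reads per kilobase of coding sequence with the same scaling to library size. Dag1 leads and Dmd is last on both scales, with means of 24.8 and 0.357 RPKM, while Utrn ranks lower per coding length.

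The coding sequences of these genes were nearly unique among annotated transcripts. Their untranslated exons, which are part of the gene length (coding share 10.5% in Sgcd), were not checked. Of all 28-base stretches of the coding sequences, none was shared with transcripts of another gene in 8 members, and 1 of 936 was shared in Sgcb. Even Dmd and Utrn shared none.

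The comparison of eIF5A-KO with WT asks whether ribosome-protected reads on the complex differ when the translation factor is labelled as removed. No member passed the test. Of the 9 members, 7 had a mean of at least 1 RPKM and were tested with limma on log2(RPKM + 1), and Dmd and Sntb1 fell below that mean. None of the 7 was called at a Benjamini-Hochberg adjusted p under 0.05, against 0.106% of 11363 genes tested (12 genes), and none had an unadjusted p under 0.05, against 7.32% of genes. The median log2 fold change of the 7 was -0.29, with 4 values below 0 and 3 above, beside a median of 0.00026 over all tested genes. This median is the value of Sgca, which had 0 and 8 reads in the eIF5A-KO libraries. Over the 6 tested members with at least 20 reads it was -0.15, beside 0.033 over all such genes. Scaled instead to equal totals of recovered reads, a choice made after seeing the data, the median was 0.28 for the members and 0.50 for all genes, and scaled to equal sums of RPKM it was 0.72 and 0.84, so signs are relative to the authors' scaling. In the RPKM sums a single short RNA gene, Rny1, made up 33.4% to 58.9%. Without overlap between groups, 1 member (Sspn) was lower in eIF5A-KO, against 20.3% of tested genes, and 1 (Sgcd) was higher, against 20.1%. With equal read totals, 0 members were lower and 2 higher, against 7.54% and 41.9% of tested genes. With equal sums of RPKM, 0 were lower and 3 higher, against 2.5% and 48.5%. With equal upper quartiles of RPKM, 1 was lower and 1 higher, against 16.5% and 24.5%.

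Sspn had the smallest p-value of the 7, with a log2 fold change of -0.85 (SE 0.46, 95% interval -1.99 to 0.28, limma with Benjamini-Hochberg adjusted p = 0.690). Its levels were 4.42 ± 1.56 RPKM in WT and 2.02 ± 0.991 in eIF5A-KO (SD, n = 2 each). For Dag1 the log2 fold change was -0.31 (SE 0.41, interval -1.31 to 0.69), and for Utrn it was 0.24 (SE 0.46, interval -0.89 to 1.38). In linear terms the intervals run from 0.402-fold to 1.62-fold for Dag1 and from 0.540-fold to 2.60-fold for Utrn, on the scale of RPKM + 1. Sizeable changes in either direction thus lie within both intervals. Sgcb gave -0.35 (SE 0.39), Sgcd 0.33 (SE 0.66), Sgce 0.02 (SE 0.44) and Sgca -0.29 (SE 0.93) on the log2 scale. Sgca, with 0 and 8 reads in the eIF5A-KO libraries, had the widest error. In a fit of every gene with reads, Dmd gave -0.18 (SE 0.37, limma adjusted p = 0.863) and Sntb1 -0.53 (SE 0.60, adjusted p = 0.777). The adjusted p-values of the 7 tested members ranged from 0.690 to 0.993. The sign for Utrn, Sgca and Sgce depended on single libraries: without the first eIF5A-KO library they gave -0.22, 1.08 and -0.17. Without the second, Sgca gave -1.66. Without the first WT library, Sgce gave -0.14. The size of the other values also moved when single libraries were left out, while their sign held. Over the 4 omissions the log2 fold change ran from -0.53 to -0.09 for Dag1 (nearest to 0 without the first WT library), from -0.54 to -0.15 for Sgcb (nearest to 0 without the first eIF5A-KO library or the second WT library), and from 0.17 to 0.51 for Sgcd (lowest without the first WT library). For Sspn it ran from -1.19 to -0.51, nearest to 0 without the first eIF5A-KO library or the second WT library. For the weakly read Sntb1 it ran from -1.05 to -0.01, and for Dmd from -0.36 to -0.003, both nearest to 0 without the first WT library. The median of the tested members ran from -0.22 to -0.14.

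**Figure D3:**
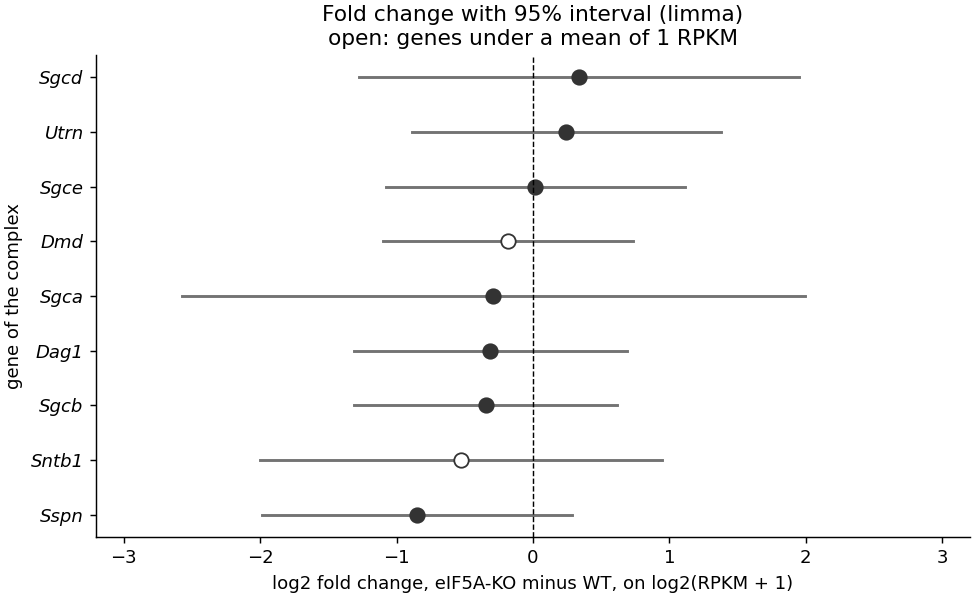
Log2 fold change of each member, eIF5A-KO minus WT, on the log2(RPKM + 1) scale, with 95% limma intervals (x axis). All 9 intervals cross 0, and that of Sspn, at -1.99 to 0.28, reaches least far above it.

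The members with proline runs had values on both sides of 0. Dag1 gave -0.31, Utrn 0.24, Dmd -0.18 and Sntb1 -0.53 on the log2 scale, and none passed the test. Over the whole table, the 2541 tested protein-coding genes with a run had a median log2 fold change of -0.13 and the 7325 without a run had 0.12. Genes with 4 or more places, as in Dag1, had a median of -0.27 (268 genes), and those with a run of 5 or more prolines, as in Dmd and Utrn, had -0.20 (400 genes). These medians are descriptions over genes of the same 4 libraries.

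The 9 members together took 0.0988% and 0.0799% of the protein-coding reads in WT (266 and 174 reads) and 0.0837% and 0.0686% in eIF5A-KO (385 and 264 reads). The shares overlapped, at 0.0894 ± 0.0134% and 0.0761 ± 0.0107% (SD, n = 2 each, exact two-sided permutation p = 0.667). In such bulk libraries, fewer cells of a type and less ribosome-bound RNA per cell cannot be told apart.

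Genes that work with the complex were read beside it. Of 12 other genes of the complex (among them syntrophins, dystrobrevins and their partners), 4 were tested, none was called, and the median log2 fold change was -0.12. Sntb2, a second β syntrophin, had the most recovered reads in total, although Dtnbp1 was higher per kilobase. Sntb2 stood at 10.7 and 5.54 RPKM in WT and 8.74 and 6.34 in eIF5A-KO (log2 fold change -0.05, SE 0.45, limma adjusted p = 0.977). Sntb2 thus had 229 reads in all against 11 for Sntb1. Sgcz and Sntg1 were listed at 0 in all 4 libraries.

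The laminin-binding sugars of α-dystroglycan are built by a dedicated set of enzymes, of which 18 were listed and 14 tested. None was called by adjusted p, 6 values were below 0 and 8 above, and the median was 0.10. Gmppb, which makes the GDP-mannose that these enzymes draw on, was the only one of the 14 with an unadjusted p under 0.05, a share near the 7.32% of all genes tested. It had 3 reads and 1 read in WT (1.79 and 0.762 RPKM) and 13 and 14 in eIF5A-KO (5.15 and 6.22 RPKM), higher in both eIF5A-KO libraries (log2 fold change 1.59, SE 0.43, limma adjusted p = 0.629). Dpm3, a subunit of the enzyme that makes dolichol-phosphate mannose, had the most reads of the list, at 16.2 and 50.8 RPKM in WT and 24.0 and 36.4 in eIF5A-KO (log2 fold change 0.03, adjusted p = 0.991).

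Of 12 extracellular ligands of dystroglycan, 11 were tested and none was called, with a median of 0.18. The gene with the most recovered reads was Lama1, the laminin α1 chain, at 192 and 1068 RPKM in WT and 43.5 and 263 in eIF5A-KO (log2 fold change -2.07, SE 1.14, limma adjusted p = 0.692). Its WT libraries differed widely from each other, and the groups overlapped. Of 18 genes of other membrane linkage and repair systems, 11 were tested and none was called, with a median of 0.08. Des, the muscle intermediate filament protein desmin, was the only 1 of the 11 with an unadjusted p under 0.05 by limma, beside 7.32% of all genes tested. Its levels were 45.9 and 40.1 RPKM in WT and 13.8 and 21.4 in eIF5A-KO (log2 fold change -1.27, SE 0.43, limma adjusted p = 0.665). By the total of recovered reads, Ahnak led this group with 1295 against 1263 for Itgb1, although Itgb1 was higher per kilobase. Ahnak, a giant scaffold protein of the membrane, stood at 20.7 and 7.67 RPKM in WT and 40.0 and 15.6 in eIF5A-KO (log2 fold change 0.93, adjusted p = 0.706).

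**Figure D4:**
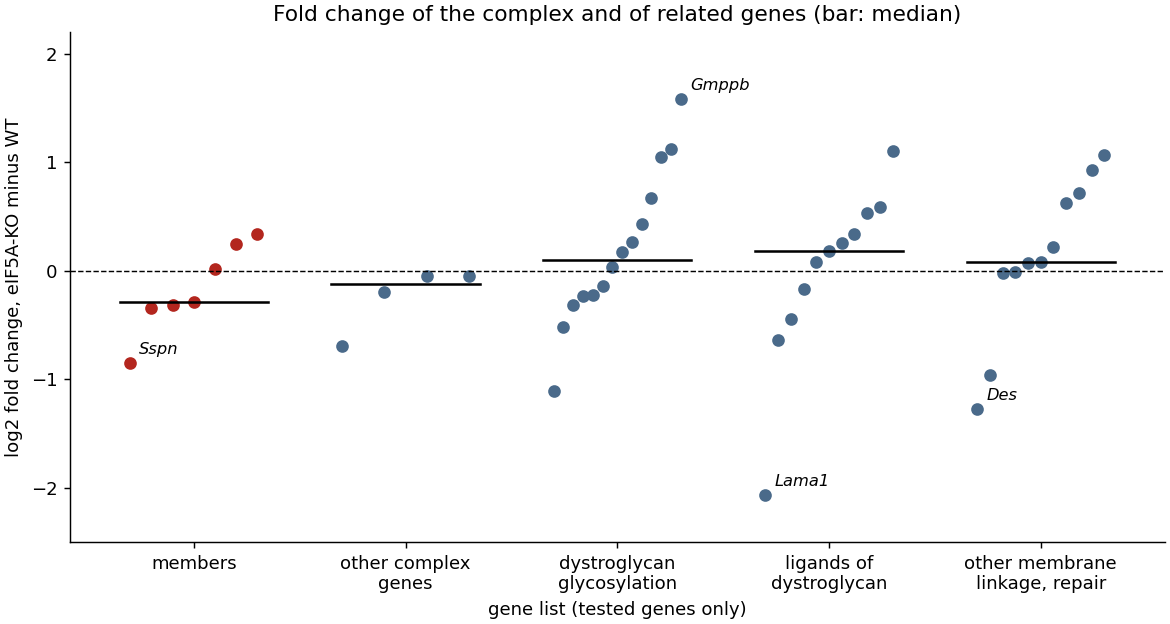
Log2 fold changes, eIF5A-KO minus WT, on the log2(RPKM + 1) scale, of the members and of the genes tested in each related list, with 1 point per gene and a bar at the median. The medians lie between -0.29 for the members, which is the value of Sgca, and 0.18 for the ligands. No gene shown was called by adjusted p.

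Summed levels of cell type markers were set beside these values. Markers of myogenic precursors summed to 353 and 214 RPKM in WT and 122 and 136 in eIF5A-KO, and 9 of 10 had a log2 fold change below 0 on the authors' scaling. Markers of differentiated muscle summed to 247 and 82.2 RPKM in WT and 45.7 and 46.7 in eIF5A-KO, with 9 of 15 listed genes tested and all 9 below 0. Fibroblast markers summed to 667 and 448 RPKM in WT and to 1070 and 517 in eIF5A-KO, with 10 of 12 above 0. By limma, none of these markers was called by adjusted p. At an unadjusted p under 0.05 there were 5 of 10 myogenic precursor markers, 4 of 9 markers of differentiated muscle, 2 of 5 immune, 1 of 8 endothelial, 1 of 7 smooth muscle and pericyte, 0 of 12 fibroblast and 0 of 8 Schwann and neural markers, against 7.32% of all genes tested. The 1 smooth muscle and pericyte marker was Des, which is also 1 of the 5 myogenic precursor markers. The first eIF5A-KO library was the highest of the 4 in fibroblast and endothelial markers and in Utrn and Sgce. It was the lowest in markers of myogenic precursors and of differentiated muscle, and in Sgcb, Sspn, Sgca and Sntb1. For Dag1, Sgcd and Dmd it was neither. Endothelial markers summed to 135 and 124 RPKM in WT and 180 and 150 in eIF5A-KO, with all 8 above 0. Smooth muscle and pericyte markers summed to 126, 101, 83.6 and 78.1 RPKM in the same order. That sum includes Des (45.95, 40.14, 13.8 and 21.44 RPKM), which is also in the myogenic precursor list, so these sums are not separate. Immune markers summed to 48.2, 76.5, 66.8 and 51.4 (with Itgam at 0), and Schwann and neural markers to 80.3, 32.8, 57.7 and 36.3. The part of these cell types in the levels of the complex was not tested.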

How the data were processed

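Ribosome-protected RNA of 4 libraries (2 WT, 2 eIF5A-KO, grouped by the genotype label; sample titles name Polysome-Seq) was analysed. The authors removed low-quality, rRNA and tRNA reads, mapped with TopHat2 to mm10, counted with HTSeq and deposited RPKM values. Strand and counting rules are not given in the sources used here. RPKM times gene length gave whole multiples of 1 read within 0.05 for 100% of values, so reads were recovered. Depth was 642429 to 704006 reads per library, while the authors' RPKM divisors ran from 471136 to 906990, and the intervals, like the limit of 3 reads set for a count of 0, hold for counting error alone.

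The main test was limma 3.58.1 in R 4.3.3 on log2(RPKM + 1), which understates changes of weakly read genes, restricted to genes averaging 1 RPKM or more, adjusted by the Benjamini-Hochberg method over all of them. Single values were compared by exact permutation. The scripts were tested on simulated data. Coding sequences came from GENCODE M21 (GRCm38), in which 99.7% of identifiers were found, and were translated to find proline runs and identities. The members and lists were chosen with earlier results of these data known. All 9 members were named, with the gene of most recovered reads in each related list and its genes at an unadjusted p under 0.05, while Itgb1, Dtnbp1 and Rny1 were added after their values were seen. Other scalings, filters, pseudocounts, left-out libraries and a replicate block were tried as alternatives.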

Additional observations from a re-analysis of the deposited data

How the results depend on the processing

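No member was called by adjusted p in any of 18 alternatives, and the lowest adjusted p of a member was 0.371. Where an alternative could change a fold change, 93 values of members kept their direction and their side of the threshold and 13 changed sign, while 43 others were fixed by construction (other filters, no trend, the block). With equal sums of RPKM, the median of all genes was 0.84 on the log2 scale and that of the tested members 0.72. It gave 0.72 for Dag1, 0.62 for Sgcb, 0.21 for Sgca and 0.027 for Dmd, each under the shift of all genes. Sgce (0.76), Sspn (-0.062) and Sntb1 (-0.33) were also under it, while Utrn (1.16) and Sgcd (0.88) were above it. Without overlap, 0 members were lower and 3 higher, against 2.5% and 48.5% of genes. With equal read totals, chosen after seeing the data, the median was 0.50 for all genes and 0.28 for the members. Dag1 gave 0.28, Sgcb 0.20, Sgca 0.036, Sgce 0.45, Sspn -0.40, Dmd -0.042 and Sntb1 -0.35, under the shift of all genes. Utrn (0.78) and Sgcd (0.65) were above it. With that scaling 0 members were lower and 2 higher without overlap, against 7.54% and 41.9% of genes. Removing the trend over GC content gave -0.22 for Sgce, 0.061 for Utrn, 0.093 for Sgcd, -0.095 for Sgca and -0.42 for Dmd. Sgce gave -0.079 when only the RPKM sum over protein-coding genes was made equal, likewise chosen after seeing the data. Leaving out 1 library at a time, with the lone library assumed to vary like the other group, gave -0.22 to 0.71 for Utrn, -1.66 to 1.08 for Sgca and -0.17 to 0.20 for Sgce. By coding length, the rank by mean level became 5 for Utrn, 7 for Sgca, 6 for Sgcd, 4 for Sgce and 3 for Sspn. The cause of these changes was not tested.

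Replicate numbers are shared between groups, but the samples share only a number (correlation of deviations 0.0575 over 11363 genes). With 2 against 2 libraries the replicate block cannot change a fold change, so the median of the members is -0.29 by construction. It called none of them, while the genes called over the whole table went from 12 to 0. That count was 0 in most other settings and 39 with limma-voom on the recovered reads. A pseudocount of 0.1 in place of 1 gave -1.57 for Sgca, -1.63 for Sntb1, -0.52 for Dmd and 0.62 for Sgcd, and limma-voom gave -0.75 for Dmd and 0.62 for Sgcd. Sgca and Sntb1 had too few reads for that fit, and the median of the other 6 tested members was -0.15. The few reads of Dmd, Sgca, Sntb1 and Sgcd limit what these libraries can show.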
